A study of Oncorhynchus mykiss with 9 samples.

Results

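The vitamin D metabolism genes of rainbow trout liver were followed through 2 forms of hypoxia, with CYP24A1, the enzyme that inactivates the vitamin D hormone, at the centre. Members were chosen by gene symbol, ignoring case, from a set of 8: cyp24a1, cyp2r1, cyp27b1, cyp27c1, vdr, vdra, vdrb and gc. Of these symbols 7 had at least 1 row and vdr alone had none, which gave 13 members among 42127 genes. They were 2 rows each of CYP24A1, CYP2R1, CYP27B1, cyp27c1, vdra and vdrb, and 1 row of gc. Rows that share a symbol are called copies here and are told apart by the identifier in the deposited table. The CYP24A1 rows entered because their measured level had already been seen to differ, so their values are given as a description with no test. The other members entered by name.

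Liver RNA of rainbow trout (Oncorhynchus mykiss), a salmonid of cold, oxygen-rich water, was sequenced in 9 libraries. Of these, 3 were labelled acute hypoxia (oxygen shortage), 3 moderate hypoxia and 3 control, and all were labelled wild-type. The design text gives 12 h for acute hypoxia, in a wording that may or may not extend to moderate hypoxia. The titles of the moderate hypoxia libraries (Tm12L) also hold a 12, with no unit. The sources used here do not give oxygen levels, age, strain or sex, nor whether each library was made from a different fish. The p-values therefore measure the spread between libraries, which may be technical.

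Vitamin D is inert until it has been hydroxylated. In mammals CYP2R1 in the liver adds the first hydroxyl group at carbon 25, CYP27B1, mostly in the kidney, adds a second and makes the hormone calcitriol, and CYP24A1 hydroxylates both forms at carbon 24 and so starts their breakdown. Calcitriol acts through the vitamin D receptor, a nuclear receptor that pairs with a retinoid X receptor and of which ray-finned fish have an a and a b form, and the protein made by gc carries vitamin D metabolites in blood. CYP24A1 is a classic target of the receptor in mammals, where it is best known from kidney.

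Levels are FPKM, in which the fragments of a gene are divided by its length and by the size of the library, so they can be compared between genes. The size of the libraries in reads is not known, so counting error has no interval here. Relative depth, estimated from ratios of low values with control library 1 as the unit, was 0.947 to 1.29, and 29598 to 30611 genes per library stood above 0. Summed hepatocyte markers reached 53410 to 58919 FPKM in acute hypoxia, 50210 to 56389 FPKM in moderate hypoxia and 50167 to 54510 FPKM in control. The liver label fits these levels. Salmonids carry many near-identical gene copies, and how reads were shared between them is not stated, so each division between copies is uncertain. In whole tissue, fewer cells of a type and less RNA per cell cannot be told apart.

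CYP24A1, which inactivates the hormone, was the best represented of the enzymes chosen by symbol. Of the 2 copies of CYP24A1, ncbi_110493887 was abundant, at rank 690 of 42127 genes by mean FPKM in control. The other, ncbi_100136661, ranked 2024. Both carry the product name 1,25-dihydroxyvitamin D(3) 24-hydroxylase, and in acute hypoxia one lay above and the other below control.

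The scarcer copy, ncbi_100136661, stood at 3.90, 4.55 and 3.94 FPKM in the acute hypoxia libraries, at 2.32, 2.42 and 2.01 FPKM in moderate hypoxia and at 11.8, 11.3 and 12.3 FPKM in control. All hypoxia libraries lay far below all control libraries, moderate hypoxia was lowest, and no groups overlapped. Means were 4.13 ± 0.364 FPKM in acute hypoxia, 2.25 ± 0.213 FPKM in moderate hypoxia and 11.8 ± 0.479 FPKM in control (SD, n = 3 each). The ratio of means to control was 0.350 in acute hypoxia and 0.191 in moderate hypoxia, and the ratio of acute to moderate hypoxia was 1.84. On the log2(FPKM + 0.5) scale the differences were -1.41 ± 0.10 for acute hypoxia against control, -2.16 ± 0.10 for moderate hypoxia against control and 0.75 ± 0.10 for acute against moderate hypoxia (limma standard error).

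The abundant copy, ncbi_110493887, was at 66.1, 82.1 and 80.3 FPKM in acute hypoxia, at 52.5, 46.6 and 64.0 FPKM in moderate hypoxia and at 61.7, 58.9 and 56.5 FPKM in control. Acute hypoxia lay above both other groups without overlap, while moderate hypoxia spread to both sides of control. Its means were 76.2 ± 8.77 FPKM in acute hypoxia, 54.4 ± 8.82 FPKM in moderate hypoxia and 59.0 ± 2.58 FPKM in control (SD, n = 3 each). The log2 difference from control was 0.36 ± 0.13 in acute hypoxia and -0.13 ± 0.13 in moderate hypoxia, and acute against moderate hypoxia gave 0.49 ± 0.13 (standard error).

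The abundant copy made up most of the total. Summed over both copies, CYP24A1 reached 70.0, 86.7 and 84.3 FPKM in acute hypoxia, 54.8, 49.0 and 66.0 FPKM in moderate hypoxia and 73.5, 70.3 and 68.8 FPKM in control. The acute hypoxia libraries overlapped control in this sum, and the moderate hypoxia libraries lay below control. The share of the sum that came from ncbi_100136661 was 5.17 ± 0.450% in acute hypoxia, 4.07 ± 0.952% in moderate hypoxia and 16.7 ± 1.01% in control (SD, n = 3 each). The abundant copy was thus 18.5 ± 1.74 times the other in acute hypoxia, 24.6 ± 6.49 times in moderate hypoxia and 5.01 ± 0.354 times in control.

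**Figure D1:**
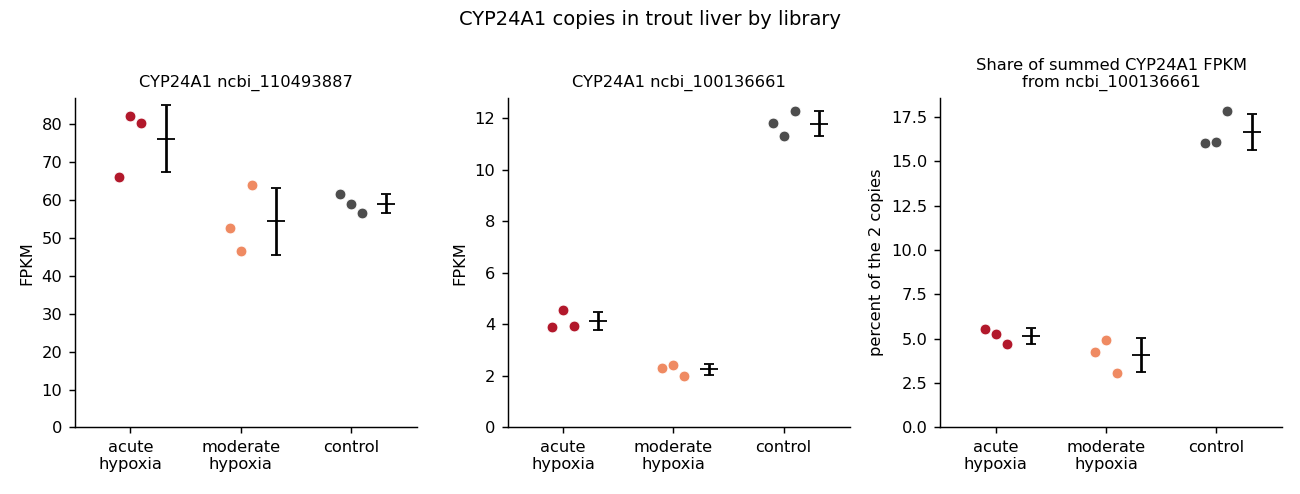
FPKM of the abundant CYP24A1 copy (left) and the scarcer copy (middle), and the percentage of their sum from the scarcer copy (right), each point a library and each bar the mean with 1 SD (n = 3). The scarcer copy lies below every control library in both hypoxia groups, at 3.90 to 4.55 FPKM in acute and 2.01 to 2.42 FPKM in moderate hypoxia, while the abundant copy was highest in acute hypoxia.

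The genes whose log2 levels followed the scarcer copy most closely over the 9 libraries were NDUFS6, a subunit of respiratory complex I (Pearson r = 0.98), and ppib, a prolyl isomerase of the endoplasmic reticulum (r = 0.96). The next were mtmr14, a phosphoinositide phosphatase, Zc3hav1, Nr0b2, a nuclear receptor that represses bile acid synthesis in mammals, and Dap, each with r of 0.96. The row with the symbol Zc3hav1 has the product name protein mono-ADP-ribosyltransferase PARP12, so its identity is unclear. Nr0b2 stood at 13.7, 16.6 and 18.6 FPKM in acute hypoxia, at 11.6, 12.5 and 10.8 FPKM in moderate hypoxia and at 23.9, 25.2 and 22.5 FPKM in control. Like the scarcer copy it was highest in control and lowest in moderate hypoxia, with no overlap between groups. The genes nearest to the abundant copy were ATP6AP1, an accessory subunit of the proton pump of vesicles (r = 0.95), and cyp3a27 ncbi_118947742, a drug- and steroid-oxidizing P450 (r = 0.94). Minpp1, abhd6a, ELOVL4 and COX6B1, a subunit of cytochrome c oxidase, followed with r between 0.91 and 0.92. COX6B1 was at 106, 136 and 107 FPKM in acute hypoxia, at 68.0, 56.8 and 74.7 FPKM in moderate hypoxia and at 77.3, 84.0 and 61.6 FPKM in control. These correlations describe 9 libraries in 3 groups. They were the highest among those of the 13803 tested genes that have an annotated symbol. They share library scaling, and the list for the scarcer copy was added after its values were seen. Between the CYP24A1 copies themselves r was 0.055.

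In moderate hypoxia 3 of the 4 receptor copies were called higher than control. Among the 4 rows of the receptor, vdra ncbi_110532402 was the most abundant, with vdra ncbi_100136219 and both vdrb copies at lower levels in control. In limma on log2(FPKM + 0.5), with Benjamini-Hochberg adjusted p under 0.05 over 13803 genes averaging 1 FPKM or more, 3 of the 5 testable members other than CYP24A1 were higher in moderate hypoxia than in control and 0 were lower. All 3 were receptor copies. The background was wide, since 29.3% of all tested genes passed in that comparison, 24.3% of them as higher and 5.02% as lower. The median log2 difference of all genes was 0.15 for moderate hypoxia against control, -0.21 for acute against moderate hypoxia and -0.05 for acute hypoxia against control. Relative values below have this median subtracted, and p-values are those before subtraction. Relative to it the scarcer CYP24A1 copy differed by -2.32 in moderate hypoxia against control and the abundant copy by -0.28.

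The receptor copy with the largest difference was vdra ncbi_100136219. It stood at 3.33, 3.49 and 4.04 FPKM in acute hypoxia, at 6.17, 6.56 and 7.22 FPKM in moderate hypoxia and at 2.48, 2.71 and 2.44 FPKM in control. The 3 groups did not overlap, with moderate hypoxia highest and acute hypoxia between. The log2 difference of moderate hypoxia from control was 1.23 ± 0.11, or 1.08 relative to all genes (limma, adjusted p = 9.51e-05). For acute hypoxia against control it was 0.43 ± 0.11 (adjusted p = 0.0322), and for acute against moderate hypoxia -0.80 ± 0.11, or -0.59 relative to all genes (adjusted p = 0.000516). The call in acute hypoxia was fragile. It was lost without any single control library (adjusted p = 0.119, 0.0574 and 0.0906), without acute library 2 (0.0760) or 3 (0.0955), and with no filter (0.0645). The second deposited table, of acute hypoxia and control, lists other FPKM for the same libraries. There the levels were 2.56, 2.43 and 3.63 FPKM in acute hypoxia and 2.11, 2.47 and 2.06 FPKM in control. On these values limma gave 0.30 with an adjusted p of 0.269.

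The other vdra copy, ncbi_110532402, was at 10.1, 11.6 and 9.82 FPKM in acute hypoxia, at 13.1, 11.9 and 14.0 FPKM in moderate hypoxia and at 10.4, 10.1 and 12.3 FPKM in control. Both hypoxia groups overlapped control. It passed no test, with limma adjusted p of 0.818 for acute hypoxia against control, 0.136 for moderate hypoxia against control and 0.0689 for acute against moderate hypoxia. Its level was 2.93 ± 0.461 times that of ncbi_100136219 in acute hypoxia, 1.96 ± 0.155 times in moderate hypoxia and 4.32 ± 0.686 times in control (SD, n = 3 each).

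The vdrb copies had similar levels. The first, ncbi_110493951, was at 3.76, 4.13 and 4.03 FPKM in acute hypoxia, at 5.73, 3.71 and 5.91 FPKM in moderate hypoxia and at 3.34, 2.95 and 2.64 FPKM in control, and moderate library 2 was lower than its fellows. The second, ncbi_110528497, was at 3.99, 3.33 and 3.43 FPKM in acute hypoxia, at 5.41, 4.54 and 5.77 FPKM in moderate hypoxia and at 3.04, 2.70 and 2.76 FPKM in control. In both copies every hypoxia library exceeded every control library. Of all tested genes, 11.1% were higher than control without overlap in acute hypoxia and 35.6% in moderate hypoxia. Over the 9 libraries the log2 levels of the vdrb copies correlated with r = 0.90, against 0.63 for the vdra copies, as a description.

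In moderate hypoxia against control the log2 difference was 0.67 ± 0.16 for ncbi_110493951, or 0.52 relative to all genes (limma, adjusted p = 0.00925), and 0.78 ± 0.12 for ncbi_110528497, or 0.63 relative (adjusted p = 0.000964). Acute hypoxia against control gave 0.37 for ncbi_110493951 (adjusted p = 0.190) and 0.29 for ncbi_110528497 (adjusted p = 0.161), so neither passed. For acute against moderate hypoxia ncbi_110528497 differed by -0.49, or -0.28 relative to all genes (adjusted p = 0.00939), a call lost under median-of-ratios scaling (adjusted p = 0.103). There ncbi_110493951 differed by -0.30 (adjusted p = 0.159), and without moderate library 2 the adjusted p was 0.0135.

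Added together, the receptor copies came to 21.1, 22.6 and 21.3 FPKM in acute hypoxia, to 30.4, 26.7 and 32.9 FPKM in moderate hypoxia and to 19.2, 18.5 and 20.2 FPKM in control. Every group stood apart, with moderate hypoxia highest. The abundant vdra copy supplied 48.4 ± 2.82% of the sum in acute hypoxia, 43.4 ± 0.991% in moderate hypoxia and 56.6 ± 3.98% in control (SD, n = 3 each). Summed CYP24A1 was 3.70 ± 0.341 times the summed receptors in acute hypoxia, 1.88 ± 0.105 times in moderate hypoxia and 3.68 ± 0.233 times in control. These sums include the copies chosen on their difference and carry no test.

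**Figure D2:**
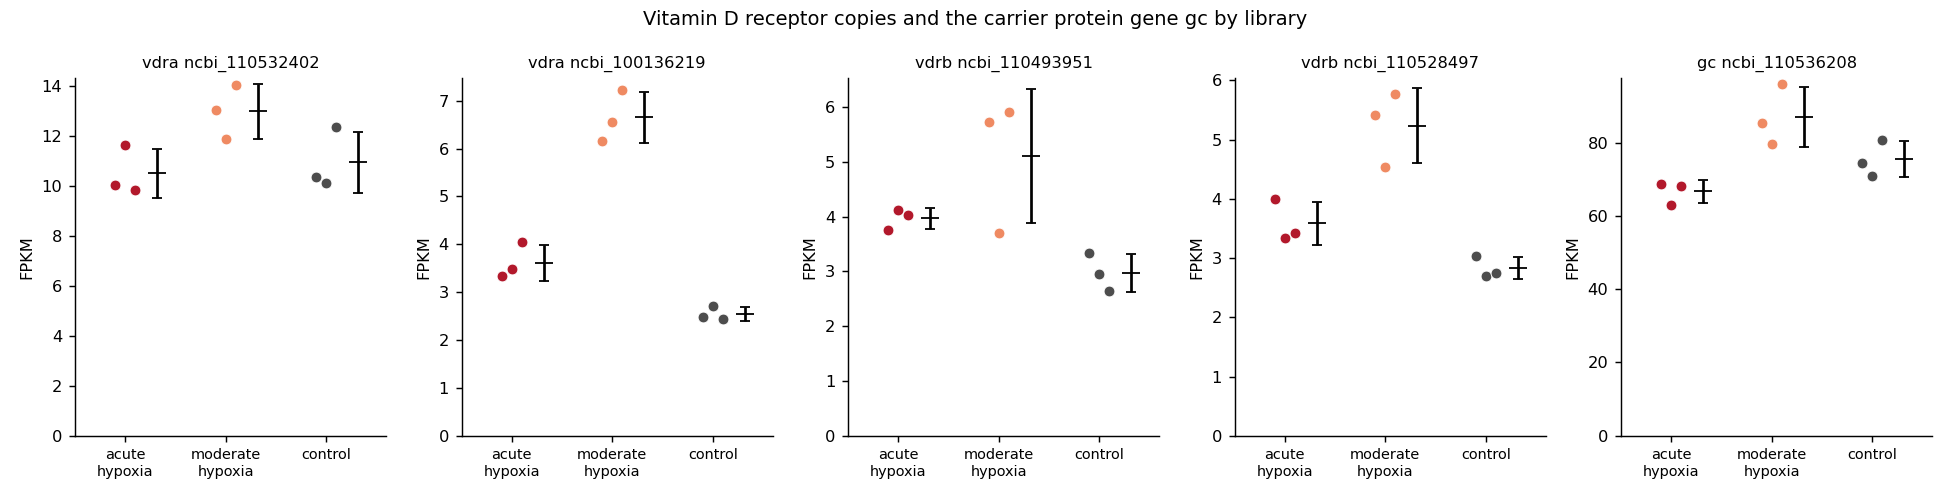
FPKM of the 4 vitamin D receptor copies and of gc, each point a library and each bar the mean with 1 SD (n = 3). In vdra ncbi_100136219 and both vdrb copies all hypoxia libraries lie above all control libraries, and vdra ncbi_100136219 spans 6.17 to 7.22 FPKM in moderate hypoxia. Without overlap, 11.1% of all tested genes lie above control in acute hypoxia and 35.6% in moderate hypoxia.

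Summed markers of some other cell types also stood apart in moderate hypoxia, in which 24.3% of all tested genes passed as higher than control and 5.02% as lower. Without overlap, 35.6% of all tested genes were higher there than control and 9.45% lower. Endothelial markers summed to 16.9 to 20.9 FPKM in moderate hypoxia and 14.2 to 14.9 FPKM in control (1 of 6 tested markers higher, 0 lower). Markers of stellate cells and fibroblasts summed to 110.2 to 140.2 FPKM in moderate hypoxia and 77.8 to 97.9 FPKM in control (2 of 12 higher, 0 lower, and 0 of 12 either way under median-of-ratios scaling), and among them 1 of the DES rows and 2 of the LRAT rows were at 0 in all libraries. Most of that sum came from col1a1 and col1a2 rows, each above control in moderate hypoxia without overlap. All LRAT, pdgfrb, des and ACTA2 rows above 0 overlapped control. LRAT ncbi_110534421 was at 8.15 to 10.4 FPKM in moderate hypoxia and 9.11 to 13.4 FPKM in control. The sum therefore describes the collagen rows and not these markers in general. Kidney markers summed to 8.63 to 25.04 FPKM in moderate hypoxia and 5.71 to 6.87 FPKM in control (1 of 2 higher, 0 lower), almost all of it from UMOD copies. Granulocyte markers summed to 1328 to 1451 FPKM in moderate hypoxia and 2035 to 2214 FPKM in control (0 of 5 higher, 1 lower). Almost all of this sum was lyz2, at 1319 to 1426 FPKM in moderate hypoxia and 2026 to 2207 FPKM in control. The sum therefore describes lyz2 and not granulocyte markers in general. Among the rest, CSF3R ncbi_110523172 was higher in moderate hypoxia (0.52 to 0.632 FPKM, against 0.313 to 0.476 FPKM in control). All other granulocyte rows overlapped control. Macrophage markers summed to 34.4 to 45.6 FPKM in acute hypoxia, 40.5 to 52.2 FPKM in moderate hypoxia and 48.3 to 60.9 FPKM in control (2 of 8 lower in acute hypoxia and 1 of 8 in moderate hypoxia, 0 higher). Here moderate hypoxia overlapped control. Of all tested genes 3.08% passed as higher and 4.71% as lower in acute hypoxia against control. The part of these cells in the receptor and CYP24A1 values was not tested.

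The carrier gene gc, which makes a plasma protein of the liver, was the most abundant member at rank 608 of all genes in control. It stood at 68.8, 63.1 and 68.2 FPKM in acute hypoxia, at 85.4, 79.7 and 95.9 FPKM in moderate hypoxia and at 74.5, 71.0 and 80.7 FPKM in control. Acute hypoxia lay below both other groups without overlap, and moderate hypoxia overlapped control. The log2 difference was -0.17 for acute hypoxia against control (limma, adjusted p = 0.311) and 0.20 for moderate hypoxia against control (adjusted p = 0.134). Acute against moderate hypoxia gave -0.38 ± 0.10, or -0.17 relative to all genes (adjusted p = 0.0128). Under median-of-ratios scaling that difference was -0.13 with an adjusted p of 0.381.

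In acute hypoxia against control, 1 of the 5 testable members other than CYP24A1 passed as higher and 0 as lower, where 7.79% of all tested genes passed, 3.08% as higher and 4.71% as lower. In acute against moderate hypoxia 3 passed as lower and 0 as higher, beside 32.4% of all tested genes, 28.1% as lower and 4.30% as higher. With median-of-ratios scaling, which sets the median of all genes near 0, the count in acute against moderate hypoxia was 1 lower and 0 higher, with 11.9% of all tested genes lower and 11.8% higher. The counts in the comparisons with control, 1 higher in acute hypoxia and 3 higher in moderate hypoxia, came out equal under that scaling, with 4.24% and 13.3% of all tested genes higher. Both comparisons use the same control libraries. Of the same 5 members, groups did not overlap in 3 that were higher and 1 that was lower in acute hypoxia against control (11.1% and 17.1% of all tested genes). In moderate hypoxia against control they did not overlap in 3 higher and 0 lower (35.6% and 9.45%), and in acute against moderate hypoxia in 0 higher and 4 lower (6.85% and 38.7%).

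**Figure D3:**
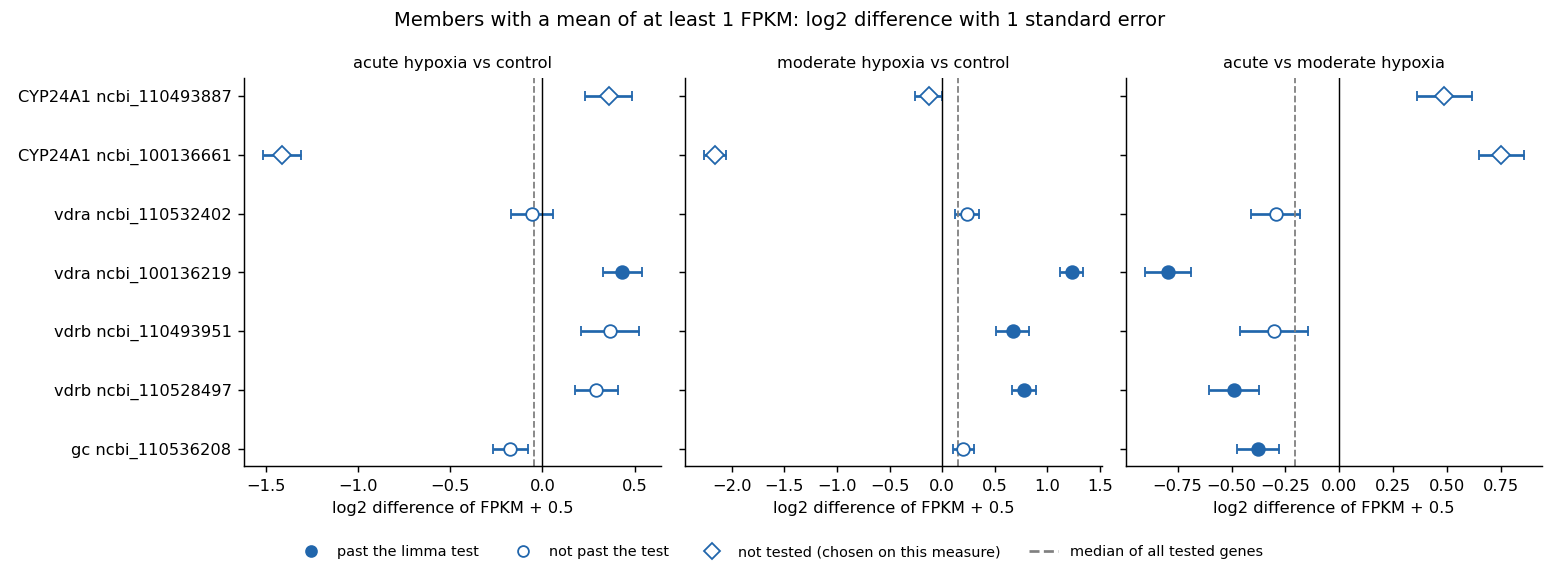
Log2 difference of FPKM + 0.5 with 1 standard error for the 7 members averaging 1 FPKM or more in each comparison, filled where limma's adjusted p is under 0.05, with diamonds for the CYP24A1 copies, which carry no test, and a dashed line at the median of all tested genes. The scarcer CYP24A1 copy is far left of the line in both comparisons with control. In moderate hypoxia against control every receptor copy lies right of it, and 3 of them are filled.

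CYP2R1 and CYP27B1, the activating enzymes chosen by symbol, were scarce in these livers. All 4 of their rows and both of cyp27c1 fell below the mean of 1 FPKM. Their tests come from the same model without the filter, over 35536 genes above 0 in at least 1 library. There 1.97% of genes passed in acute hypoxia against control, 11.6% in moderate hypoxia against control and 13.0% in acute against moderate hypoxia. None of the 5 such members above 0 passed in any of the 3 comparisons, with adjusted p between 0.142 and 0.977, and at these levels a difference may not be detectable.

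CYP2R1, the main 25-hydroxylase of mammals, was nearly silent. Its row ncbi_110526546 was listed at 0.014, 0 and 0.059 FPKM in acute hypoxia, at 0 in all moderate hypoxia libraries and at 0.046, 0.016 and 0 FPKM in control, and ncbi_110506679 was listed at 0 in all 9. A further pair of rows carries the product name vitamin D(3) 25-hydroxylase under the symbol CYP2D25, which names a pig enzyme with that activity. Of these ncbi_110526456 was at 597, 610.1 and 565 FPKM in acute hypoxia, at 509.7, 563 and 554 FPKM in moderate hypoxia and at 572, 575 and 547 FPKM in control, rank 154 of all genes. It overlapped control in both hypoxia groups and passed no comparison (limma, adjusted p = 0.659 for acute and 0.591 for moderate hypoxia against control, and 0.231 for acute against moderate hypoxia). Under median-of-ratios scaling the difference of acute from moderate hypoxia was 0.37 (adjusted p = 0.0105). The other, ncbi_110486032, was at 2.999, 3.32 and 4.33 FPKM in acute hypoxia, at 7.19, 4.15 and 1.86 FPKM in moderate hypoxia and at 5.32, 0.579 and 9.04 FPKM in control, a spread within control wider than any difference between groups.

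CYP27B1, which makes the active hormone, varied widely between the libraries of a group. Its copy ncbi_110528221 stood at 1.18, 0.071 and 1.70 FPKM in acute hypoxia, at 0.122, 0.278 and 0.650 FPKM in moderate hypoxia and at 0.752, 0.057 and 1.59 FPKM in control. The copy ncbi_110494198 was at 0.253, 0.076 and 0.490 FPKM in acute hypoxia, at 0.028, 0.086 and 0.144 FPKM in moderate hypoxia and at 0.170, 0.066 and 0.460 FPKM in control. The libraries high in one copy were high in the other, and r over the 9 libraries was 0.94, as a description. Summed, the copies reached 1.26 ± 1.03 FPKM in acute hypoxia, 0.436 ± 0.328 FPKM in moderate hypoxia and 1.03 ± 0.968 FPKM in control (SD, n = 3 each).

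The cyp27c1 rows belong to the same P450 family. In zebrafish the enzyme converts vitamin A1 to vitamin A2, and its place among the vitamin D genes here comes from the symbol list alone. Copy ncbi_110510834 was at 0.485, 0.302 and 0.352 FPKM in acute hypoxia, at 0.812, 0.321 and 0.570 FPKM in moderate hypoxia and at 0.600, 0.505 and 0.399 FPKM in control. Copy ncbi_110519502 was at 0.143, 0.270 and 0.213 FPKM in acute hypoxia, at 0.327, 0.323 and 0.418 FPKM in moderate hypoxia and at 0.299, 0.131 and 0.250 FPKM in control. In the second copy all moderate hypoxia libraries exceeded all others, with adjusted p of 0.206 against control and 0.142 for acute against moderate hypoxia (limma without the filter).

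**Figure D4:**
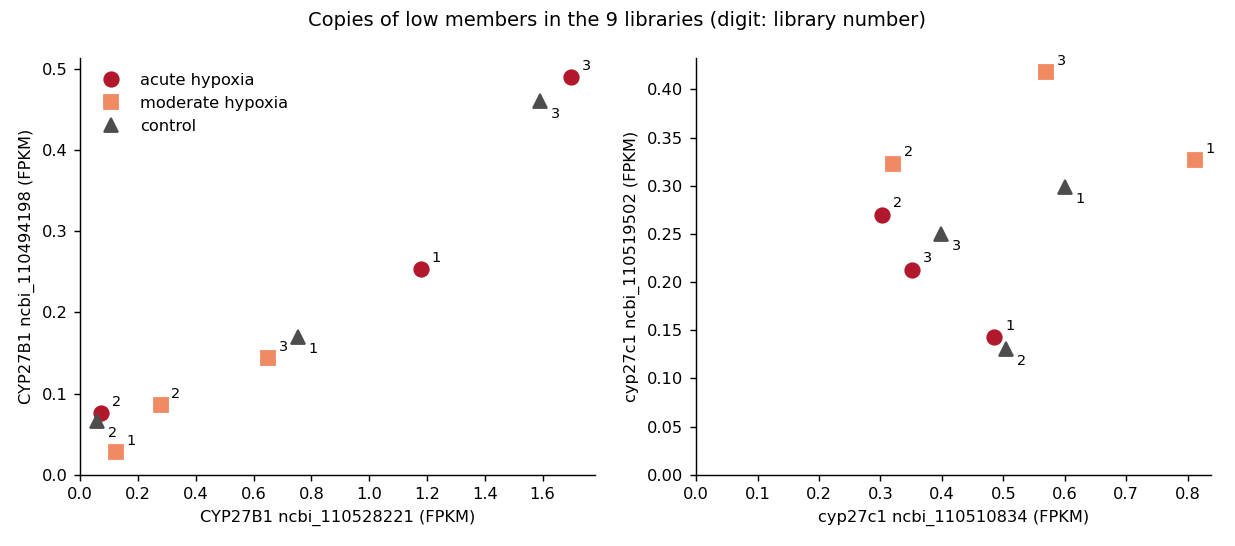
FPKM of one copy against the other for CYP27B1 (left) and cyp27c1 (right), each point a library with its number. Libraries high in one CYP27B1 copy are high in the other, with acute and control libraries 3 highest at 1.70 and 1.59 FPKM of ncbi_110528221, and the cyp27c1 copies show no such line.

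In a RefSeq annotation of the species, both CYP24A1 copies share a chromosome with 1 vdrb copy and 1 CYP27B1 copy. Only the chromosome was compared, so distances between these genes are not known here. The scarce CYP24A1 copy is on the chromosome of vdrb ncbi_110528497, CYP27B1 ncbi_110528221 and cyp27c1 ncbi_110510834. The abundant copy is on that of vdrb ncbi_110493951 and CYP27B1 ncbi_110494198. Between these 2 sets, r over the 9 libraries was 0.055 for CYP24A1, 0.90 for vdrb and 0.94 for CYP27B1, again as a description.

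Genes around the pathway were counted in 7 lists. Their counts stand beside 3.08% of all tested genes higher and 4.71% lower in acute hypoxia against control (4.24% higher, and 552 of 13803 genes lower, under median-of-ratios scaling), and 24.3% higher and 5.02% lower in moderate hypoxia against control (13.3% and 12.5% under that scaling). Among 17 tested genes of precursor synthesis and other 25-hydroxylases, 3 were lower and 0 higher in acute hypoxia against control, with a median log2 difference of 0.03, and under median-of-ratios scaling 2 were lower and 1 higher. The 3 were dhcr7 ncbi_110506398, which consumes the precursor of vitamin D (36.1 ± 5.93 FPKM in acute hypoxia, 55.5 ± 5.78 FPKM in control, limma adjusted p = 0.0124), sc5d, which makes that precursor (35.9 ± 8.59 FPKM in acute hypoxia, 55.3 ± 3.79 FPKM in control, adjusted p = 0.0312, and 0.0514 under median-of-ratios scaling), and CYP2J2 ncbi_110521776, a P450 (48.3 ± 8.71 FPKM in acute hypoxia, 70.6 ± 2.96 FPKM in control, adjusted p = 0.0158). The more abundant dhcr7 row, ncbi_110526232, did not pass, at 46.0 ± 16.8 FPKM in acute hypoxia and 76.3 ± 7.99 FPKM in control (limma, adjusted p = 0.0606). No other tested CYP2J2 row passed in acute hypoxia. Of these ncbi_110521603 lay above control in its mean, at 91.1 ± 17.3 FPKM against 70.9 ± 9.57 FPKM (limma, adjusted p = 0.174). In moderate hypoxia 3 of the 17 were higher and 1 lower than control, and under median-of-ratios scaling 1 higher and 5 lower. There sc5d was again lower (38.3 ± 2.66 FPKM, adjusted p = 0.0295), and Cyp27a1 ncbi_110501573, a sterol 26-hydroxylase that can also hydroxylate vitamin D in mammals, was higher at 2.29 ± 0.241 FPKM against 1.02 ± 0.453 FPKM in control (adjusted p = 0.00502). It stood at 0.465 ± 0.0414 FPKM in acute hypoxia (adjusted p = 0.0754 against control).

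Of the partners and cofactors of the receptor, the list with the most tested genes, 12 of 26 were higher and 3 lower in moderate hypoxia, with a median log2 difference of 0.39 beside 0.15 for all genes. Under median-of-ratios scaling 6 were higher and 5 lower. The retinoid X receptor rxraa ncbi_100136128, a partner of the vitamin D receptor, was higher at 2.71 ± 0.115 FPKM in moderate hypoxia against 1.25 ± 0.0504 FPKM in control (limma, adjusted p = 0.0005). In acute hypoxia it was at 2.12 ± 0.310 FPKM (adjusted p = 0.0118). Of the retinoid X receptor gamma rows, rxrga ncbi_110530170 was lower in acute hypoxia at 1.35 ± 0.449 FPKM against 2.85 ± 0.0702 FPKM in control (adjusted p = 0.013). So was rxrga ncbi_110508859, named after its values were seen, at 2.31 ± 0.522 FPKM in acute hypoxia, 1.75 ± 0.487 FPKM in moderate hypoxia and 4.67 ± 0.540 FPKM in control (adjusted p = 0.013 and 0.000968 against control). The most abundant tested gamma row, rxrgb ncbi_110524849, was not lower. It stood at 9.725 ± 1.79 FPKM in acute hypoxia, 8.42 ± 0.631 FPKM in moderate hypoxia and 7.97 ± 1.29 FPKM in control. It passed neither comparison with control (limma, adjusted p = 0.305 and 0.699). The coactivator NCOA3 ncbi_110494547 and the corepressor ncor1 ncbi_110537494 were both higher in moderate hypoxia, with log2 differences of 1.05 and 0.69 (adjusted p = 0.000242 and 0.00085). In acute hypoxia 2 of the 26 were higher, rxraa ncbi_100136128 and the chromatin remodelling subunit SMARCD3 ncbi_110535649. The 2 that were lower were those rxrga rows. The more abundant tested row of each gene, rxraa ncbi_110509348 and SMARCD3 ncbi_110489911, did not pass in acute hypoxia (limma, adjusted p = 0.666 and 0.623). Nor did these rows in moderate hypoxia (adjusted p = 0.068 and 0.604). The 3 lower in moderate hypoxia were rxrga ncbi_110508859, PDIA3 ncbi_101268961 (adjusted p = 0.027) and pdia3 ncbi_110492035 (adjusted p = 0.00269).

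Of the electron donors that P450 enzymes need, 1 of 12 was higher and 1 lower in acute hypoxia, porb at 35.0 ± 2.65 FPKM against 25.02 ± 1.34 FPKM in control (limma, adjusted p = 0.01) and CYB5A ncbi_110526393, cytochrome b5, at 2.80 ± 0.0631 FPKM against 4.27 ± 0.165 FPKM in control (adjusted p = 0.00618). More abundant cytochrome b5 rows did not pass in acute hypoxia. CYB5A ncbi_110490002 was at 74.6 FPKM against 76.7 FPKM in control (limma, adjusted p = 0.899). CYB5A ncbi_110535578 was at 38.9 FPKM against 44.6 FPKM in control (adjusted p = 0.253). In moderate hypoxia 2 of the 12 electron donors were higher and 2 lower, and 0 higher and 4 lower under median-of-ratios scaling. Both tested genes of vitamin D uptake were higher in moderate hypoxia and neither passed in acute hypoxia. They were DAB2, an endocytic adaptor, at 9.07 ± 1.41 FPKM in moderate hypoxia against 5.69 ± 0.640 FPKM in control (adjusted p = 0.00649), and a row with the symbol Cubn whose product name is ovochymase-2, so that its identity is unclear.

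The genes that vitamin D acts on in other animals were mostly too low to test. Of 38 rows for calcium and phosphate handling 8 were tested, 1 of them higher in acute hypoxia and 3 in moderate hypoxia against control (1 under median-of-ratios scaling), with 0 lower. The calcium pump ATP2B1 ncbi_110490600 passed in both, at 4.92 ± 0.347 FPKM in acute hypoxia, 5.90 ± 0.294 FPKM in moderate hypoxia and 3.53 ± 0.142 FPKM in control (limma, adjusted p = 0.0214 and 0.000849 against control). Of 8 tested genes from a list of other mammalian vitamin D targets, 3 were lower and 0 higher in acute hypoxia, namely cebpb ncbi_100136165 and both tested TXNIP rows. The other tested cebpb row, CEBPB ncbi_100379112, did not pass in acute hypoxia (limma, adjusted p = 0.186). In moderate hypoxia 4 of the 8 were higher and 0 lower, or 1 higher and 0 lower under median-of-ratios scaling, and igfbp1 had the largest difference among those named, at 33.9 ± 3.22 FPKM against 14.0 ± 1.19 FPKM in control (adjusted p = 0.0123). Of 75 rows for hormones and receptors around vitamin D, 56 were at 0 and 3 were tested. Among these fgfr4 passed as higher in moderate hypoxia (4.15 ± 0.485 FPKM against 2.87 ± 0.0645 FPKM in control, adjusted p = 0.0111, and 0.0657 under median-of-ratios scaling) and none passed in acute hypoxia, where kl, klotho, stood at 43.1 ± 1.45 FPKM against 36.4 ± 1.19 FPKM in control (adjusted p = 0.0979, and 0.0418 under median-of-ratios scaling).

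The authors' deposited table gives its own values for the named members. There vdra ncbi_100136219 and vdrb ncbi_110493951 and ncbi_110528497 had log2 fold changes of 1.39, 0.78 and 0.89 for moderate hypoxia over control, with FDR of 0.000385, 0.0192 and 0.0332. For acute hypoxia over control the authors' deposited table gives 0.38 with an FDR of 0.523 for that vdra copy and 0.42 with an FDR of 0.0426 for vdrb ncbi_110493951, the reverse of the calls made here. For acute over moderate hypoxia the authors' deposited table calls none of the 3 rows that passed here, with FDR of 0.954 for vdra ncbi_100136219, 0.873 for vdrb ncbi_110528497 and 0.888 for gc. There the authors' deposited table has an FDR of 0.0276 for CYP27B1 ncbi_110494198, with a log2 fold change of 1.67, and of 0.00309 for CYP2D25 ncbi_110526456, with 0.12, neither of which passed here. For moderate hypoxia over control the authors' deposited table gives CYP2D25 ncbi_110526456 a log2 fold change of -0.06 with an FDR of 0.0323, also not called here. The sources used here do not name the test behind these values.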

How the data were processed

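Rainbow trout liver RNA was sequenced in 9 libraries, grouped by their labels. The authors deposited FPKM per gene and library, with log2 fold changes, p-values and FDR between groups, per the file headers. The submitters' processing notes name Bowtie2 2.2.8 and TopHat2 2.1.1. No source used here names the build, the counting tool or the test. The deposited file stacks 3 tables. Acute hypoxia was taken from its table with moderate hypoxia, and moderate hypoxia and control from theirs (moderate values were identical in both, largest difference 0), so acute hypoxia and control come from separate tables. The second of the 3 tables, acute hypoxia with control, lists 42038 genes and other FPKM for the same libraries, and was an alternative. Why its values differ is not stated in the sources used here.

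Genes averaging 1 FPKM or more (13803) were fitted as log2(FPKM + 0.5) with limma 3.58.1 in R 4.3.3 (eBayes with a mean trend, 3 groups in 1 fit, no covariate), called at a Benjamini-Hochberg adjusted p under 0.05. The added 0.5 understates folds of low genes. The code was tested on simulated data. Members, lists and tests were chosen with earlier results of these data known. Named were all members, rows with a vitamin D product name, up to 3 genes per list with the smallest p against control, of which part is given, and the 6 genes most alike to a CYP24A1 copy. Alternatives were pseudocounts of 0.1 and 1, no filter or one at 5 FPKM, scaling by median of ratios or by quantiles, no mean trend and robust variances. Further ones were a replicate block, the 2 compared groups alone, the table of acute hypoxia with control, and each library left out.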

Additional observations from a re-analysis of the deposited data

How the results depend on the processing

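Calls of vdra ncbi_100136219 and of both vdrb copies in moderate hypoxia against control held under the 18 alternatives that include them, the filter of 5 FPKM having removed all 3. Genes called in acute hypoxia against control numbered 1075, with 700 without the filter, 571 with a filter of 5 FPKM and 459 to 1084 with a library left out, fewest without control library 1, then 580 without acute library 2 and 657 without control library 2. In moderate hypoxia against control 4041 were called, 1257 with a filter of 5 FPKM and 2655 to 4070 with a library left out (fewest without control library 1). In acute against moderate hypoxia 4477 were called, 1443 with a filter of 5 FPKM, 2943 with quantile scaling and 2930 to 4464 with a library left out (fewest without moderate library 1). The higher filter tests fewer genes, and the cause of the other shifts was not tested.

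The scarcer CYP24A1 copy kept its direction under all alternatives, as a description only, since the copy was chosen on its difference. Its groups did not overlap, so leaving out a library could not have turned the sign. In moderate hypoxia against control its log2 difference was -2.34 with a pseudocount of 0.1, -1.98 with 1, -2.32 with median-of-ratios and -2.35 with quantile scaling, and in acute against moderate hypoxia 0.96 with median-of-ratios and 1.004 with quantile scaling. The abundant copy gave -0.32 in moderate hypoxia against control and 0.74 in acute against moderate hypoxia with median-of-ratios scaling.

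Among members and CYP2D25 rows that passed no test, the sign turned in acute hypoxia against control for vdra ncbi_110532402 with quantile scaling (0.0061) and for CYP2D25 ncbi_110486032 with a pseudocount of 1 (-0.0399). It turned in moderate hypoxia against control with median-of-ratios and quantile scaling for CYP2D25 ncbi_110486032 (-0.0076 and -0.0133) and cyp27c1 ncbi_110510834 (-0.0292 and -0.0885), and in acute against moderate hypoxia for CYP2D25 ncbi_110486032 (0.0907 and 0.108). With a library left out, log2 differences ran in acute hypoxia against control from -0.0376 to 0.0442 for CYP2R1 ncbi_110526546, from -0.336 to 0.760 for CYP27B1 ncbi_110528221, from -0.117 to 0.293 for CYP27B1 ncbi_110494198, from -0.131 to 0.0389 for cyp27c1 ncbi_110519502, from -0.128 to 0.0312 for vdra ncbi_110532402 and from -0.892 to 0.679 for CYP2D25 ncbi_110486032. In moderate hypoxia against control they ran from -0.0905 to 0.248 for cyp27c1 ncbi_110510834 and from -0.764 to 0.808 for CYP2D25 ncbi_110486032, which ran from -0.575 to 0.277 in acute against moderate hypoxia.

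The replicate numbers showed no pairing of the libraries: deviations of libraries with the same number correlated between -0.131 and 0.0806. Those with different numbers correlated between -0.106 and 0.130. Correlations over many genes can miss a pairing, so none is excluded. With the replicate block 794 genes were called in acute hypoxia against control, 3557 in moderate hypoxia against control and 3984 in acute against moderate hypoxia, and vdra ncbi_100136219 in acute hypoxia had an adjusted p of 0.0574. Read totals are unknown, so depth limits the low members to an unknown degree.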
